A study of Mus musculus with 4 samples.

Results

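Pleiotrophin (Ptn), midkine (Mdk), their receptors Ptprz1 and Alk, and tenascin C (Tnc) were followed across 4 RNA libraries of basal radial glia from the mouse neocortex. The 5 genes were chosen by symbol, through the Ensembl identifiers that map to these names in GENCODE M21 on GRCm38. They are 5 of 45706 genes in the count table and 5 of the 20991 genes with at least 10 counts that entered the tests. The series has a single group: medial basal radial glia at E18.5, strain C57BL/6JOlaHsd, genotype Tubb-GFP/+, with the dye name DiI in the sample titles. No contrast between conditions exists, so levels were compared between genes within a library and between libraries. The labels do not say that the 4 replicates came from separate animals, so the p-values describe no more than how these samples vary, and that variation may be technical.

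Ptn and Mdk are small secreted proteins that bind heparin and related sugar chains. Ptprz1 is a receptor tyrosine phosphatase that carries chondroitin sulfate, and pleiotrophin binding is known to lower its phosphatase activity. Alk is a receptor tyrosine kinase that has been described as another receptor for both growth factors, and Tnc is a large matrix glycoprotein that binds Ptprz1 and integrins. In the human fetal neocortex, PTN, PTPRZ1 and TNC are known as genes of outer radial glia, the human counterpart of basal radial glia.

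The ligands are related to each other, and Ptprz1 has a single close relative, Ptprg. The coding sequences were aligned to show how alike the relatives are. Of 420 aligned bases of Ptn and Mdk, 241 were identical, or 57.4%. Ptn (168 codons, stop not counted) and Mdk (140 codons) shared 74 of 140 aligned residues, or 52.9%, and all 10 cysteine codons of each gene were aligned with a cysteine codon of the other. The stretches below encode 36 residues of the C-terminal heparin-binding domain, codons 99 to 134 of Ptn (chr6:36741327-36741434, minus strand) and codons 81 to 116 of Mdk (chr2:91930867-91930974, minus strand). Both were read 5′ to 3′ on the coding strand from GRCm38, and capitals mark the cysteine codons that align.
Ptn: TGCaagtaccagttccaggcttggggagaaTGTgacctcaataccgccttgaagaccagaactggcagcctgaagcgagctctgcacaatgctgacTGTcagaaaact
Mdk: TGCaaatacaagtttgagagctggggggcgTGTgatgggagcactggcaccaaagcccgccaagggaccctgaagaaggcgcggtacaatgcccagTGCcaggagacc

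The next stretches show the catalytic loop of the first phosphatase domain, the most conserved site of the receptor family, in Ptprz1 (codons 1921 to 1944, chr6:23033475-23035084, plus strand) and in Ptprg (codons 1048 to 1071, chr14:12213775-12215227, plus strand). Each is spliced across an intron that lies between these coordinates. Capitals mark the 8 codons of the loop. Over the whole aligned coding sequences of Ptprz1 and Ptprg, 2364 of 4092 bases were identical, or 57.8%.
Ptprz1: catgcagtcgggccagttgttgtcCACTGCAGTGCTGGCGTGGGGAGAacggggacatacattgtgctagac
Ptprg: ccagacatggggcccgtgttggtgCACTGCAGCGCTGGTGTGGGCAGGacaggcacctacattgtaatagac

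Few 50-base windows of the members' exons were shared with any other gene. The share was 0.0591% for Ptn, 0.151% for Mdk, 0.0770% for Ptprz1, 0 for Alk and 1.04% for Tnc. The Mdk windows lay in the pseudogene Mdk-ps1, which held 57 counts in all 4 libraries together, or 0.129% of those of Mdk. The Tnc windows lay in 8030451A03Rik, which overlaps 176 exonic bases of Tnc (2.27%) on the opposite strand. Whether the counting used strand is not stated in the sources used here, so reads of that overlap could not be assigned.

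The libraries held 27979873, 34837657, 29824888 and 26540656 counts for replicates 1 to 4, with 23128 to 23900 genes detected. Radial glial markers summed to 4737 to 5727 TPM (read counts per base of merged exon, scaled to the same total in each library). All 8 of 8 were above 1 TPM, beside 75.7% of protein-coding genes above and 11.5% below. Counts near that share, here and in the lists that follow, do not by themselves show a cell type. Of 7 basal radial glia markers, 6 were above 1 TPM and Fam107a was not called. Their median was 3.65 TPM, under the 4.79 TPM of all genes tested and the 8.997 TPM of protein-coding genes. With the whole gene span as length 4 were above and 3 below. Without replicate 2, 6 were above and 1 was below, as with the longest transcript as length. Hopx, the gene in the study's title, averaged 3.03 ± 0.414 TPM (SD, n = 4). Markers of other cells were present as well. Neuronal markers summed to 9049 to 10150 TPM (4 of 4 above 1 TPM) and intermediate progenitor markers to 910 to 1011 TPM (4 of 4). Astrocyte markers summed to 791 to 953 TPM (6 of 6) and oligodendrocyte precursor markers to 57.04 to 64.5 TPM (6 of 6). The erythroid sum was 2374 to 4198 TPM (5 of 5). The meningeal sum was 5.76 to 8.55 TPM, with 2 of 6 genes above 1 TPM and 3 below. Endothelial and mural markers summed to 8.30 to 12.4 TPM (2 of 6 above), microglial markers to 16.8 to 38.4 TPM (5 of 6 above) and choroid plexus markers to 52.7 to 82.6 TPM (1 of 4 above, Ttr). Astrocytes and oligodendrocyte precursors are known to use Ptprz1, Ptn and Tnc too. The part of these cells, of neurons and of intermediate progenitors in the levels below was not tested. In bulk RNA fewer cells of a type and less RNA per cell cannot be told apart.

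Both ligands were among the most abundant protein-coding transcripts. Ptn stood at 886, 947, 934 and 965 TPM in replicates 1 to 4, from 27224, 36582, 30796 and 27306 counts. Mdk stood at 885, 883, 889 and 834 TPM, from 10491, 13157, 11312 and 9092 counts. Ptn was lowest in replicate 1 and Mdk in replicate 4, and the ranges of the genes overlapped only between 886 and 889 TPM. Ptn averaged 933 ± 33.8 TPM and Mdk 873 ± 26.3 TPM (SD, n = 4 each). Among 15401 protein-coding genes tested, Ptn ranked 112 to 135 and Mdk 136 to 149.

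The level of Ptn relative to Mdk was not settled by these libraries. Ptn was 1.001, 1.07, 1.05 and 1.16 times Mdk in replicates 1 to 4. Ptn minus Mdk averaged 0.10 ± 0.09 in log2(TPM + 1) (SD, n = 4), higher in 4 of 4 libraries, with an interval of -0.01 to 0.20 and a limma adjusted p of 0.0731. The exact sign-flip permutation test gave its smallest possible p with 4 libraries, 0.13. It gave the same p for every other pair compared below, except 0.5 for Ltk against Alk, so it does not separate those pairs from Ptn and Mdk. By limma, 0.6% of the genes tested were higher than Mdk, and Ptn was not among them. Together the ligands made up 1806 ± 26.3 TPM (SD, n = 4), of which Ptn was 51.7 ± 1.52%.

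The call depends on the length assigned to Ptn. GENCODE gives Ptn 2 transcripts, and the transcript with the longest coding sequence is 1614 bases long, against 3433 bases of merged exons. With that transcript as length, chosen after seeing the data, Ptn averaged 1289 TPM and Mdk 712 TPM, a log2 difference of 0.85 (limma adjusted p = 2.02e-08). With the longest transcript of each gene the difference was 0.19 (limma adjusted p = 0.00267). With the whole gene span it was -3.77, since Ptn spans 95292 bases of the genome and Mdk 2493. The deposited TPM follows the whole span, and there Ptn stood at 112 to 122 and Mdk at 1554 to 1662.

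**Figure D1:**
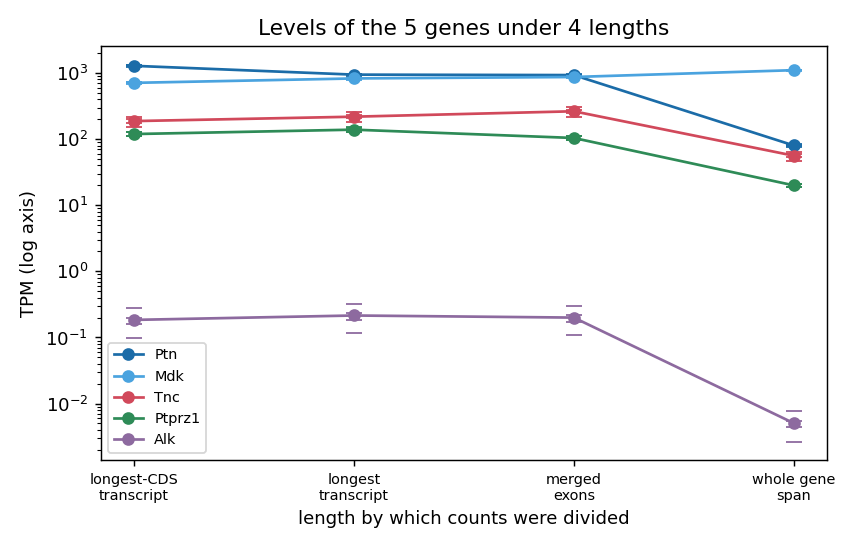
Mean TPM of Ptn, Mdk, Tnc, Ptprz1 and Alk (large points joined by lines; short bars are the 4 libraries, log axis) when the same counts are divided by 4 different gene lengths. Ptn (1289 TPM) lies above Mdk (712 TPM) with the longest-CDS transcript and below it (80.3 against 1107 TPM) with the whole gene span; Tnc lies above Ptprz1 and Alk lowest under all 4 lengths.

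Ptprz1, the phosphatase receptor, was about an order of magnitude below its ligands. It stood at 97.0, 96.8, 113 and 111 TPM in replicates 1 to 4, from 12368, 15521, 15443 and 12975 counts. Replicates 1 and 2 were low and replicates 3 and 4 high. The mean was 104 ± 8.59 TPM (SD, n = 4), and the rank among protein-coding genes was 1398 to 1667. Ptn was 9.13, 9.78, 8.27 and 8.73 times Ptprz1, a mean difference of 3.15 ± 0.10 on the log2(TPM + 1) scale. Mdk was 9.13, 9.12, 7.88 and 7.54 times Ptprz1, a mean difference of 3.06 ± 0.14 (SD, n = 4 each). Both were higher in 4 of 4 libraries, with limma adjusted p of 6.09e-12 and 1.07e-11. Of the genes tested, 6.73% were higher than Ptprz1. Summed ligand TPM was 17.4 ± 1.39 times that of Ptprz1 (16.2 to 18.9; SD, n = 4). The ratio was 12.8 ± 1.02 with the longest transcript and 16.8 ± 1.29 with the longest-coding transcript as length. With the whole gene span it was 59.7 ± 5.71, where Ptn was 1.95 and Mdk 5.72 above Ptprz1 in log2(TPM + 1).

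Tnc lay between the ligands and Ptprz1. It stood at 218, 280, 308 and 251 TPM in replicates 1 to 4, from 15193, 24513, 22993 and 16089 counts. Replicate 1 was lowest and replicate 3 highest, and no library reached the range of the ligands or of Ptprz1. The mean was 264 ± 38.4 TPM (SD, n = 4), with ranks of 499 to 753. Ptn was 4.06, 3.38, 3.03 and 3.84 times Tnc, and Mdk 4.05, 3.15, 2.89 and 3.32 times. On the log2(TPM + 1) scale these were differences of 1.83 ± 0.19 for Ptn and 1.73 ± 0.21 for Mdk (SD, n = 4 each). Tnc was 2.25, 2.89, 2.73 and 2.27 times Ptprz1, a difference of 1.33 ± 0.18 (SD, n = 4; limma adjusted p = 1.32e-08). That difference was 0.64 with the longest transcript or the longest-coding transcript as length. With the whole gene span Tnc was 0.52 below Ptn and 4.28 below Mdk in log2(TPM + 1). Of the genes tested, 2.44% were higher than Tnc.

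All differences from Tnc share the spread of Tnc itself, which lowers the pooled p. With the spread of each gene fitted on its own, an alternative added after seeing the data, the limma adjusted p was 2.99e-08 for Ptn over Tnc and 4.27e-08 for Mdk over Tnc. For Tnc over Ptprz1 it was 6.89e-07, and for Ptn and Mdk over Ptprz1 4.07e-10 and 4.50e-10.

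Alk, the kinase receptor, was close to the limit of detection. It had 21, 19, 8 and 11 counts in replicates 1 to 4, or 0.303, 0.218, 0.107 and 0.172 TPM. Exact Poisson 95% intervals, which cover counting error only, ran from 0.187 to 0.463 TPM in replicate 1 and from 0.0464 to 0.212 TPM in replicate 3, so the highest and lowest libraries overlapped. The mean was 0.200 ± 0.0820 TPM (SD, n = 4), with ranks of 13825 to 14638. Of the genes tested, 81.7% were higher than Alk. On the log2(TPM + 1) scale Ptn was 9.61 ± 0.14, Mdk 9.51 ± 0.10, Tnc 7.78 ± 0.30 and Ptprz1 6.45 ± 0.21 above Alk (SD, n = 4 each). With the spread of each gene fitted on its own, the largest of these 4 limma adjusted p was 1.01e-10.

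**Figure D2:**
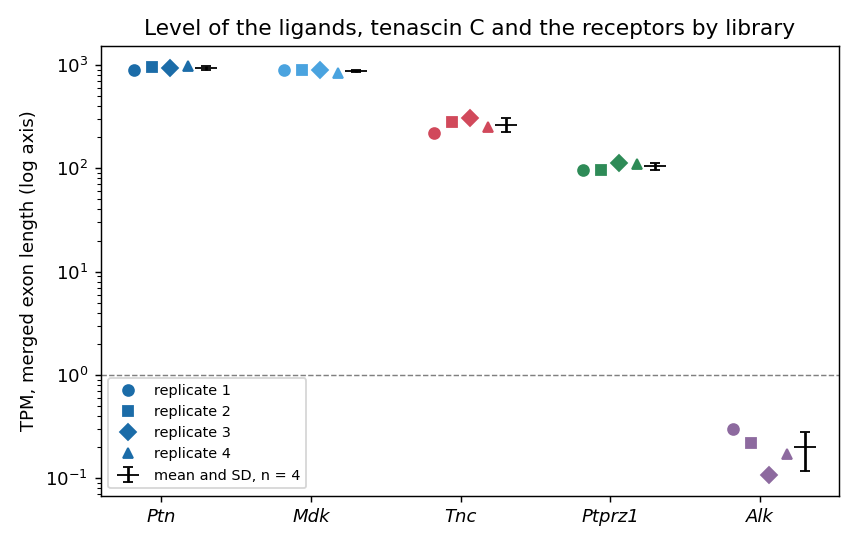
TPM by merged exon length (log axis) of the 5 genes in each library; symbols are replicates 1 to 4, black bars the mean and SD (n = 4), and the dashed line 1 TPM. The ligands lie between 834 and 965 TPM, Tnc between 218 and 308, Ptprz1 between 96.8 and 113, and Alk between 0.107 and 0.303.

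Set against a level of 1 TPM, 4 of the 5 genes were above it and Alk was below it. By an F test built on edgeR's quasi-likelihood fit, 65.9% of all genes tested were above 1 TPM and 12.1% below. Among protein-coding genes the shares were 75.7% and 11.5%, so being above does not set the 4 apart. Their levels were 9.87 ± 0.04 for Ptn, 9.77 ± 0.04 for Mdk, 8.05 ± 0.07 for Tnc and 6.70 ± 0.05 for Ptprz1, as log2 over 1 TPM (SE, n = 4). Alk was at -2.32 ± 0.37 (SE, n = 4; edgeR adjusted p = 0.000859).

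The relatives of the receptors and of tenascin C were below 10 TPM. By merged exons Ptprg and Tnr were above 1 TPM, and with the whole gene span both were below it. Ptprg, the only other receptor phosphatase of the Ptprz1 type, stood at 7.68, 7.88, 9.86 and 7.62 TPM in replicates 1 to 4. It was highest in replicate 3 and below Ptprz1 in 4 of 4 libraries. Ptprg differed from Ptprz1 by -3.51 ± 0.13 in log2(TPM + 1) (SD, n = 4; limma adjusted p = 2.54e-11). Of the genes tested, 91.5% were lower than Ptprz1.

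Tenascin R (Tnr), known as the tenascin of perineuronal nets and of oligodendrocytes, stood at 5.91, 5.33, 6.03 and 7.34 TPM. Tnr was below Tnc in 4 of 4 libraries, by a difference of -5.21 ± 0.30 on the log2(TPM + 1) scale (SD, n = 4; limma adjusted p = 6.96e-10 with each gene's spread on its own). Of the genes tested, 96.3% were lower than Tnc. Tenascin N (Tnn) had 0, 1, 3 and 0 counts, which is 0.0181 TPM pooled over the 4 libraries with a counting interval of 0.00492 to 0.0463 TPM. Tnxb, the tenascin of connective tissue, had no count in any library. Pooled over the group, Tnc was 41256-fold above a floor of 3 counts for Tnxb. It was 33552-fold above 0.00794 TPM, the upper 95% counting limit of Tnxb.

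Ltk, the relative of Alk, had 0, 1, 14 and 0 counts in replicates 1 to 4. Of its 15 counts, 14 came from replicate 3, and without that library it would not have entered the test. It was below 1 TPM with all 4 libraries (edgeR adjusted p = 0.0341), but was not called without replicate 1, 2 or 4. Ltk differed from Alk by -0.13 ± 0.32 in log2(TPM + 1) (SD, n = 4), with an interval of -0.42 to 0.16 and a limma adjusted p of 0.393. By limma 0 of the genes tested were called lower than Alk, a level next to 0 TPM, with 2 at an unadjusted p under 0.05 and 0 with each gene's spread on its own. The known ligands of Alk and Ltk were as scarce: Alkal1 had 2 counts and Alkal2 had 5 in all libraries together, too few to be tested.

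The members also differed in how much they varied between libraries. The coefficient of variation was 3.63% for Ptn, 3.01% for Mdk, 8.24% for Ptprz1 and 14.5% for Tnc. The median over the 2866 protein-coding genes with 50 to 2000 TPM was 6.80%. Of those genes, 15.9% varied less than Ptn, 9.84% less than Mdk, 62.7% less than Ptprz1 and 92.6% less than Tnc. These are descriptions of 4 libraries.

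Tnc was lowest in replicate 1 and highest in replicate 3. Some marker sums had the same extremes and others had not. Basal radial glia markers summed to 206, 261, 281 and 224 TPM in replicates 1 to 4, and radial glia markers to 4737, 5341, 5727 and 5153 TPM. Most of the first sum was Pdpn, a membrane glycoprotein, at 124, 173, 191 and 139 TPM. Most of the second was Fabp7, the brain fatty acid binding protein of radial glia, at 4155, 4691, 5084 and 4593 TPM. Of the single genes, 4 of 8 radial glia markers and 3 of 7 basal radial glia markers, Hopx among them, had the extremes of Tnc. So did 2 of 6 astrocyte markers. Outside these lists the same extremes were found in Frs2, Sparc, Acan, the oligodendrocyte precursor marker Gpr17 and the meningeal marker Lum, among other genes. The share of all genes with these extremes was not counted, so these numbers do not set the lists apart. Other markers did not have them. Nes (nestin) was highest in replicate 1 and lowest in replicate 3, at 21.6, 18.9, 17.5 and 18.52 TPM in replicates 1 to 4. Vim (vimentin) was highest in replicate 2 and lowest in replicate 4, and Lifr and Il6st, cytokine receptor subunits, were lowest in replicate 3. Astrocyte markers summed to 791, 889, 953 and 791 TPM, highest in replicate 3 with replicates 1 and 4 low. Neuronal markers ran the other way, at 10150, 9889, 9049 and 9286 TPM, highest in replicate 1 and lowest in replicate 3. Sparc, a secreted matrix protein, stood at 75.9, 92.5, 102 and 79.5 TPM. Ptprz1 did not share this order, being as low in replicate 2 as in replicate 1. The part of radial glia, astrocytes and neurons in the order of Tnc was not tested.

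**Figure D3:**
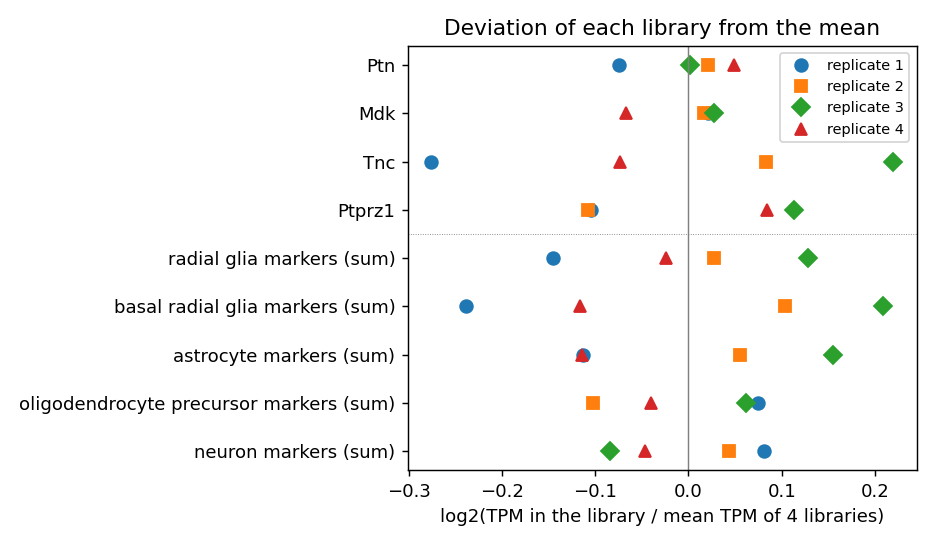
Deviation of each library from the 4-library mean, as log2 of the TPM ratio, for the 4 abundant members (above the dotted line) and for summed marker lists (below it); symbols are replicates 1 to 4. Tnc, radial glia markers and basal radial glia markers have replicate 3 at the right end, and replicate 1 lies at the left end in each of them, while Ptn and Mdk stay close to 0. Astrocyte markers also have replicate 3 at the right end, with replicates 1 and 4 together at the left end.

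The genes nearest in level to each member over the 4 libraries were found by the mean absolute difference in log2(TPM + 1). For Ptn these were Stip1 (0.04) and Tceal9 (0.04), and for Mdk Pea15a (0.03) and Fez1 (0.04). Ptprz1 was nearest to Epha4 (0.02), an ephrin receptor, and Atg5 (0.05), an autophagy gene. Tnc was nearest to Slc1a3 (0.08), the glutamate transporter of radial glia and astrocytes at 267 ± 20.5 TPM (SD, n = 4), and to Mrpl55 (0.11), a mitochondrial ribosomal protein gene.

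Other receptors described for pleiotrophin and midkine were nearly all above 1 TPM. Of 15 such genes 14 were above and 1, integrin beta 3 (Itgb3), was below at 0.306 ± 0.265 TPM, beside 75.7% above and 11.5% below among protein-coding genes. Itgb3 was no longer called without replicate 1, 2 or 3. The number above was 12 without replicate 1 and 13 without replicate 2, 3 or 4. With the whole gene span 13 were above and 2 below. The list median was 16.0 TPM, against 4.79 TPM over all genes tested and 8.997 TPM over protein-coding genes. The highest were Ncl (nucleolin, chiefly a nucleolar protein) at 225 ± 7.87 TPM and Itgb1 (integrin beta 1) at 65.5 ± 5.44 TPM. The heparan sulfate carriers Sdc4 and Sdc3 stood at 46.0 ± 8.11 and 44.7 ± 5.68 TPM (SD, n = 4 each). All 4 of these were below the level of either ligand in each library.

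The cell surface and intracellular partners of Ptprz1 were above 1 TPM by merged exon length, as were 75.7% of protein-coding genes. With the whole gene span, the length behind the deposited TPM, 5 of 6 adhesion molecules were above, and 8 of 11 intracellular partners were above and 2 below. By merged exons, all 6 of 6 adhesion molecules that bind it were above, with a median of 38.5 TPM. Ncam1 had 1236 ± 119 TPM, Chl1 89.4 ± 8.98, L1cam 54.6 ± 3.80 and Nfasc 22.5 ± 1.29 TPM (SD, n = 4 each). These adhesion molecules are also abundant on neurons. All 11 of 11 substrates and partners inside the cell were above 1 TPM, with a median of 21.3 TPM. They included Ctnnb1 (beta-catenin) at 140 ± 9.77 TPM, Add1 (adducin) at 73.2 ± 1.16 and the kinase Fyn at 52.3 ± 5.26 TPM.

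All 8 of 8 genes of signalling downstream of Alk were above 1 TPM, as were 75.7% of protein-coding genes, with a list median of 12.2 TPM. The whole gene span gave 7 above and 1 below. These adaptors and enzymes serve many receptors. Grb2 had 100.8 ± 7.54 TPM, Plcg1 30.3 ± 0.683, Irs1 15.3 ± 1.42 and Frs2 13.8 ± 1.73 TPM (SD, n = 4 each).

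Receptors of tenascin C were found on both sides of 1 TPM. Of 12 genes 5 were above 1 TPM, 4 were below and 3 were not called, and the median was 1.21 TPM. Among protein-coding genes 75.7% were above and 11.5% below. By whole gene span 4 receptors were above and 6 below. Without replicate 2 the number below was 3, and without replicate 3 it was 2 of 11 tested. Above were Itgb1, Anxa2 (annexin A2) at 26.8 ± 3.35 TPM, the neuronal adhesion molecule Cntn1 at 14.2 ± 1.67, Egfr (the EGF receptor) at 11.0 ± 1.17 and Itgav. Lowest among those below were Itgb6 at 0.0554 ± 0.0664 TPM and the innate immune receptor Tlr4 at 0.0984 ± 0.0371 TPM (SD, n = 4 each). The alpha integrins Itga7, Itga8 and Itga9, which pair with Itgb1, averaged 0.749, 1.21 and 1.21 TPM and were not called.

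Matrix partners of tenascin C were led by a proteoglycan of the brain. Of 10 genes 7 were above 1 TPM and 3 below, beside 75.7% and 11.5% of protein-coding genes, with a median of 11.3 TPM. The whole gene span gave 6 above and 4 below. Without replicate 1 or replicate 2 the number below was 2. Ncan (neurocan), a chondroitin sulfate proteoglycan that binds tenascins, had 1294 ± 85.4 TPM, above Tnc in 4 of 4 libraries. Sparc had 87.6 ± 12.2 TPM, Bcan (brevican) 22.2 ± 2.61 and Thbs1 (thrombospondin 1) 13.7 ± 1.75 TPM (SD, n = 4 each). Postn (periostin) and Acan (aggrecan) were below, at 0.0395 ± 0.0493 and 0.165 ± 0.123 TPM.

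The sugar chains bound by the ligands are made and modified by enzymes counted here in a list per chain. Genes of the chondroitin sulfate list were above 1 TPM about as often as other genes, and those of the heparan sulfate list all were. The linker enzymes common to both chains, Xylt1 among them, were counted only for chondroitin sulfate, so the lists do not compare the chains. For chondroitin sulfate, 16 of 20 genes were above, near the 75.7% of protein-coding genes, Chsy3 and Xylt1 were below, Chst7 was not called and Chst13 had too few counts. Without replicate 2, 3 or 4 the number below was 1, and with the whole gene span 11 were above and 6 below. The median was 4.73 TPM, near the 4.79 TPM of all genes tested and under the 8.997 TPM of protein-coding genes. B4galt7, which acts in the linker common to both kinds of chain, had 44.9 ± 4.44 TPM, the sulfotransferase Chst12 31.5 ± 5.07 and the polymerising enzymes Chsy1 and Chpf 26.7 ± 4.82 and 18.45 ± 3.79 TPM (SD, n = 4 each). Chsy3 had 0.175 ± 0.129 TPM and Xylt1 0.686 ± 0.179 TPM. For heparan sulfate, 13 of 13 genes were above, with a median of 8.77 TPM; with the whole gene span 10 were above and 2 below. The sulfotransferases Hs3st1 and Hs6st2 had 93.2 ± 8.72 and 61.5 ± 4.13 TPM, and the chain-building enzymes Extl3 and Ext1 35.2 ± 4.46 and 19.4 ± 1.85 TPM (SD, n = 4 each).

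**Figure D4:**
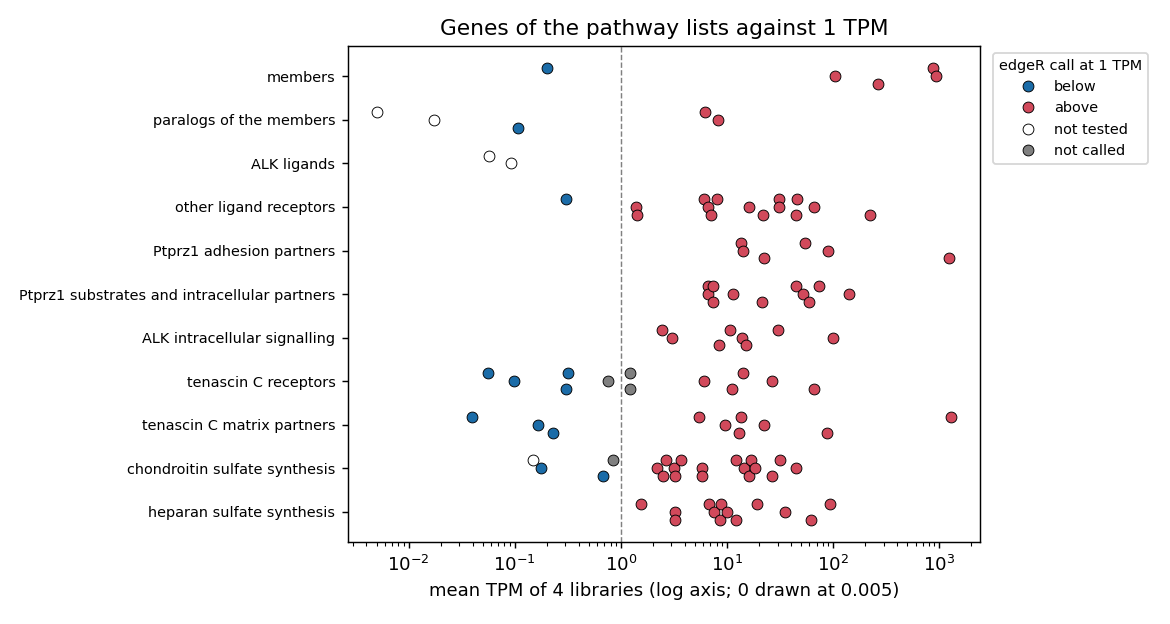
Mean TPM over 4 libraries (log axis) of each gene in the member, paralog and pathway lists; red points were above and blue points below 1 TPM by edgeR, grey points were not called and white points had under 10 counts. Points left of 1 TPM are both Alk ligands, 3 of 5 paralogs, 5 of 12 tenascin C receptors, 3 of 10 matrix partners, 4 of 20 chondroitin sulfate genes, Itgb3 among the ligand receptors, and Alk, while all points of the Ptprz1 partner and heparan sulfate rows are red.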

How the data were processed

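RNA was measured in 4 libraries of 1 group. Per the labels' protocols, cDNA was primed with poly-dT, made by template switching, amplified and sheared. Amplification carries no molecular identifiers by that description, so counting intervals cover counting error only. Per the submitters' processing notes, bcl2fastq 2.19.1, STAR 2.5.2b and GRCm38 were used; no source used here names the counter, its strand setting or its annotation. The deposited counts are whole reads per Ensembl gene, not normalised. The deposited TPM values were made by the authors with a length that equals the whole gene span within 0.05 on the log2 scale for 97.0% of 9932 genes (merged exons: 3.08%), so they were used only as an alternative.

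TPM was recomputed from the counts with merged exon lengths of GENCODE M21, which matched 45143 of 45706 identifiers; the other 563 held 0.120% to 0.125% of the counts. Levels were tested against 1 TPM, two-sided, in genes with at least 10 counts, from the quasi-likelihood fit of edgeR 4.0.16 under R 4.3.3. The F statistic for 1 sample group was built from that fit and the deviance at the fixed level, and is not a function of the package. Differences between genes of a library were tested with limma 3.58.1 on log2(TPM + 1), over all genes for each lower gene, and with exact two-sided sign-flip permutation tests. A difference of log2(TPM + 1) understates the fold of low genes. P-values were Benjamini-Hochberg adjusted over all genes, with a threshold of 0.05, for 15 pairs, of which Tnn and Tnxb had too few counts for a fit. All pairs of libraries differed by more than sampling noise (chi-square per degree of freedom 9.83 to 26.3 over 16706 genes). Coding sequences came from the GENCODE annotation and GRCm38 and were aligned with Biopython 1.88. Alternatives covered gene length, library scaling, DESeq2 1.42.0, filter, level, pseudocount and each library left out. The edgeR and limma steps were tested on simulated data.

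Genes named were the 5 members and 5 paralogs, all pairs, in each list the 4 highest genes above and 2 lowest below 1 TPM, and the 2 protein-coding genes nearest each abundant member; Itgav, Itga7, Itga8, Itga9, Chst7, Chst13, Alkal1, Alkal2 and the marker genes were named in addition. A gene that this rule takes among the Ptprz1 partners is not reported here, though it stays in the counts. The members and lists were chosen with earlier results of these data known.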

Additional observations from a re-analysis of the deposited data

Results flagged for a closer look

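In 63 genes and differences examined over the 4 libraries, 6 had 1 library far from the other 3, where the gap to the nearest value exceeded 0.829 of the whole range. Chance sets apart about 1 in 20 such groups. Mdk was low in replicate 4, at 834 TPM, against 883 to 889 TPM in the other libraries. Ptprg was high in replicate 3, at 9.86 TPM. Ltk was high in replicate 3, at 0.405 TPM from 14 counts. Plcg1 was low in replicate 4, at 29.3 TPM, within a range of 29.3 to 30.7 TPM. Frs2 was low in replicate 1, at 11.3 TPM, and Extl3 was low in replicate 3, at 28.5 TPM. Of the 6, replicate 3 held 3, replicate 4 held 2 and replicate 1 held 1.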

How the results depend on the processing

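Of the values recomputed under other settings, 267 kept their direction and their side of the threshold, 6 counts moved, 6 differences reversed and 4 became significant. The number of genes below 1 TPM, 2532, was 5141 with the whole gene span as length, 6564 with no filter on low counts, 9312 below 5 TPM and 1525 to 1707 with each library left out. Ptn minus Mdk (log2) was -3.77 with the whole span, -3.78 on the deposited TPM, 0.19 with the longest transcript, 0.85 with the longest-coding transcript and 1.47 without length (CPM); with each library left out it was 0.06 to 0.13. Without length, Mdk minus Ptprz1 was -0.36 and Mdk minus Tnc -0.82. Ltk minus Alk was 0.12 with the whole span, 0.16 on the deposited TPM, -0.42 without length and -0.88 with a pseudocount of 0.1 TPM. The span, transcript, deposited TPM and CPM settings change the length by construction. The median of all genes shifted by -0.24 with the longest transcript, -0.42 with the longest-coding transcript and -0.82 with the whole span. The levels of the 5 members kept their side of the level tested in all settings run, the largest edgeR adjusted p being 0.0398 for Alk. No paired analysis was possible because there is 1 group. Depth limits Alk, Ltk, Tnn, Tnxb and the Alk ligands, all with under 100 counts in total.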
